A study of Mus musculus with 8 samples.

Results

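The genes described here carry the interleukin-7 (IL-7) signal into the cell: the IL-7 and TSLP receptor chains (Il7r, Il2rg, Crlf2), the kinases Jak1 and Jak3, the transcription factors Stat5a and Stat5b, and the feedback genes Socs2, Cish and Pim1. They are 10 of the 21859 gene IDs in the count table and were selected by name. IL-7 is a survival and growth factor for early B cells. It binds a receptor made of the Il7r chain and the common gamma chain (Il2rg), which hold the kinases JAK1 and JAK3. The activated kinases phosphorylate STAT5A and STAT5B, which move to the nucleus and switch on genes for survival and for damping the signal. TSLP, a related cytokine, uses Il7r together with Crlf2 in place of the common gamma chain.

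PER-M60 is a leukaemia line of mouse origin, and RNA was sequenced from 8 of its cultures, 4 of them grown in control medium and 4 in medium conditioned by osteoclasts, the bone-resorbing cells of the marrow. The cultures of each medium are numbered 1 to 4, all come from this 1 line, and the labels name no genotype, strain or added cytokine for either medium. Library totals lay between 15391754 and 21637966 counts. The labels do not say how separate the cultures were. The p-values judge the difference between media against the spread among these samples, and may not cover independent experiments.

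The libraries carried B-lineage transcripts in both media: 8 of 9 B-lineage markers were tested, with Pax5 at 1206 ± 47.7 normalised CPM in control medium and 1317 ± 3.95 in conditioned medium (SD, n = 4 each). Normalised CPM are counts divided by library sizes that were scaled with the trimmed mean of M values (TMM). Of the 8, Cd79a, Cd79b, Vpreb1 and Pax5 were higher and Cd22 lower in conditioned medium, and the list summed to 3537 to 3577 normalised CPM in control and 3737 to 3778 in conditioned cultures. The remaining B-lineage marker, Rag1, had 0 counts in every culture. It lies wholly inside another gene model, with 1.21% of its exon bases in exons of that model, and whether the 0 measures its expression cannot be told without the counting rule. Markers of osteoclasts were few: 9 of 12 stayed under 20 counts in every sample, Dcstamp and Ocstamp were at 0, and the summed level was 128 to 135 normalised CPM in control medium and 139 to 145 in conditioned medium, held mostly by Nfatc1 and Acp5, which other cells also express. Nfatc1 was higher and Itgb3 lower in conditioned medium, while Acp5 did not pass the test. Matched T-cell markers other than Lck, which totalled 19317 counts, had at most 10 counts in a sample, and Cd3g and Cd8a were at 0. Trac had no matching gene ID. The highest of the low ones, Cd247, has 56.4% of its exon bases in exons of Pou2f1, so its counts are not taken as a measure of its expression. The summed level of the list, Lck included, was 133.0 to 133.8 in control and 134 to 138 normalised CPM in conditioned medium. Of 8 myeloid markers 7 stayed under 20 counts in every sample, with Cd14 and Elane at 0. All 8 summed to 3.95 to 5.21 normalised CPM in control and 5.14 to 7.07 in conditioned medium, most of it from Lyz2. Itgam was also listed at 0, but 68.7% of its exon bases overlap exons of the gene model Gm49368, so that 0 is not taken as a measure of its expression. Lyz2, a lysozyme of myeloid cells, was the marker above 20 counts and rose from 4.46 ± 0.406 to 5.91 ± 0.865 normalised CPM (edgeR adjusted p = 0.0119). Stromal markers, Runx2 aside, had at most 2 counts, and the list summed to 10.6 to 12.6 and 9.16 to 11.5 normalised CPM, with Col1a2 and Cxcl12 at 0. The part of the other cells' markers in the results below was not tested. The 13 mitochondrial genes took 0.903 to 1.16% of the counts in control cultures, 1.16 to 1.19% in conditioned replicates 1 to 3 and 1.44% in conditioned replicate 4, and the part of this share in the results was not tested.

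Of the 10 genes, 9 had enough counts to be tested, and 6 of these differed between the media (edgeR's quasi-likelihood test, Benjamini-Hochberg adjusted p under 0.05 over all 10729 genes tested). Stat5b, Cish, Crlf2, Stat5a and Pim1 were higher in conditioned medium, by 5.88 to 16.9%, and Jak3 was 7.13% lower. Il7r, Jak1 and Socs2 did not pass the test. In RNA from whole cultures, fewer cells with a transcript and less of it per cell cannot be told apart. Among all tested genes, 30.5% passed it, 15.7% higher and 14.8% lower in conditioned medium. The median log2 fold change of the 9 genes was 0.08, and that of all tested genes -0.01. Groups did not overlap for 3 of the 9 (Crlf2, Stat5a and Stat5b), against 28.2% of all tested genes. Without osteoclast-conditioned replicate 4, 4 genes were called, 3 higher and 1 lower. Without control replicate 4 or conditioned replicate 1, 3 genes were called, all higher. Scaling by total counts moved the share of all called genes that were higher from 51.6% to 40.7%, and 3 members were then called higher.

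**Figure D1:**
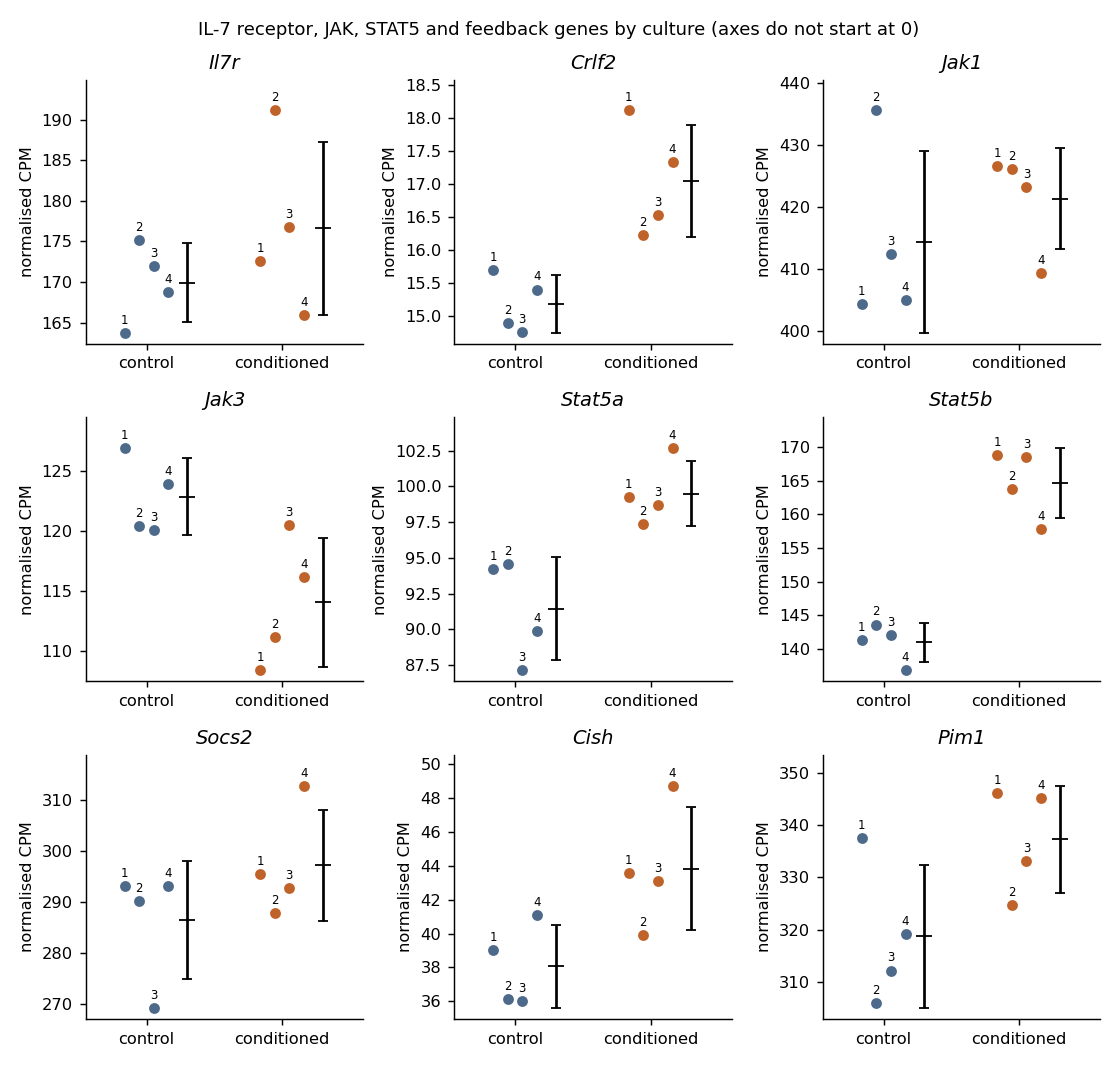
Normalised CPM (vertical axes, which do not start at 0) of the 9 measured genes in each culture, with replicate numbers beside the points, and the mean ± SD of the 4 cultures of each medium as a black bar. Stat5b has control cultures at 137 to 144 and conditioned cultures at 158 to 169, and of the other genes only Crlf2 and Stat5a have media that do not overlap.

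**Figure D2:**
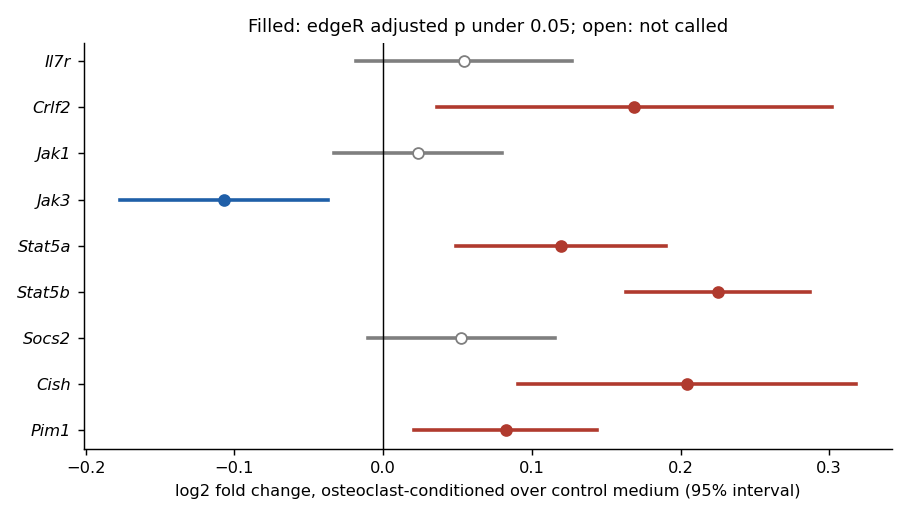
Log2 fold change of each gene in osteoclast-conditioned over control medium (horizontal axis) with its 95% interval as a line. Filled points have an edgeR adjusted p under 0.05, and the interval of Stat5b, 0.16 to 0.29, lies farthest from 0.

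Per exon length, the order of levels in control medium was Pim1, Jak1, Il7r, Socs2, Stat5b, Jak3, Stat5a, Crlf2 and Cish. Pim1 stood at 94.8 ± 4.06 normalised CPM per kilobase of annotated exon (SD, n = 4). By the mean of all 8 cultures, Pim1 lay above 96.3% of the tested genes. Jak1 followed at 57.3 ± 2.02 and Il7r at 36.4 ± 1.05 on the same scale. At the lower end, Stat5a was at 12.8 ± 0.502, Crlf2 at 10.2 ± 0.291 and Cish at 5.93 ± 0.381. Cish lay below the middle of the tested genes by its mean over all 8 cultures (percentile 43.3). Neighbours in this order were separated over all 8 cultures except Socs2 and Stat5b, whose ranges, 28.3 to 32.8 and 24.7 to 30.5, overlapped. The lengths are unions of all annotated exons, so a gene with long rare exons is placed too low.

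**Figure D3:**
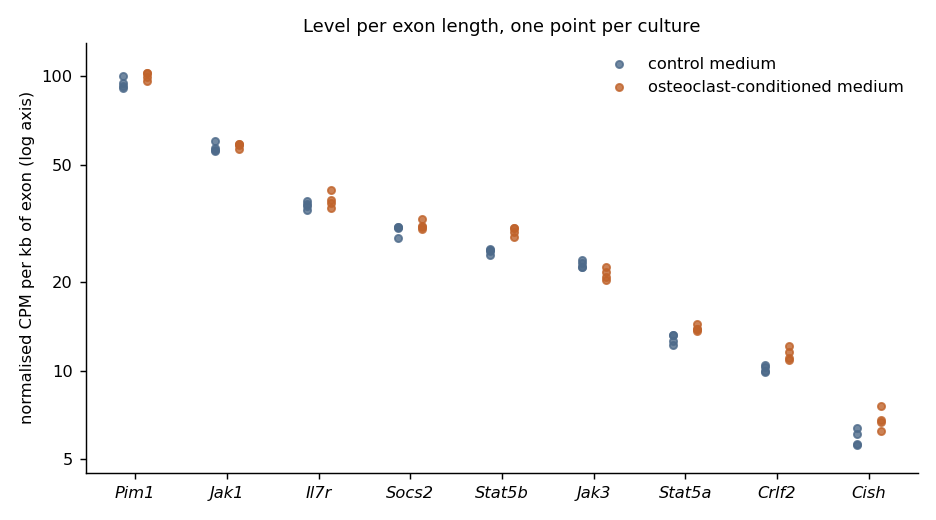
Level of each gene in normalised CPM per kilobase of annotated exon (vertical log axis), with 1 point for each culture and the media side by side. Genes are ordered by their mean in control medium, from Pim1 at 94.8 to Cish at 5.93.

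The receptor chains were examined first. Il7r (ENSMUSG00000003882; chromosome 15, 9505788 to 9530176 in GRCm38) encodes the chain that gives the receptor its specificity for IL-7. Il7r had 164, 175, 172 and 169 normalised CPM in control replicates 1 to 4. In conditioned replicates 1 to 4 it had 173, 191, 177 and 166. The ranges overlapped, with conditioned replicate 2 the highest of the 8 and control replicate 1 the lowest. The estimated change was 3.85%, with a 95% interval from -1.25 to 9.22% (edgeR adjusted p = 0.261). The log2 difference of 0.0546 was 0.0178 without conditioned replicate 2, 0.0843 without conditioned replicate 4 and 0.0332 with scaling by total counts.

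Crlf2 (ENSMUSG00000033467; chromosome 5, 109554709 to 109558993) encodes the TSLP receptor chain, and was the least abundant of the 9 by count, with 228 to 356 counts in a sample. Its control cultures had 15.7, 14.9, 14.8 and 15.4 normalised CPM, and its conditioned cultures 18.1, 16.2, 16.5 and 17.3. Every conditioned culture lay above every control culture. The difference was 0.17 on the log2 scale (SE 0.06, edgeR adjusted p = 0.0482), close to the threshold. The call was lost in 11 of 15 alternatives (highest adjusted p 0.156, without conditioned replicate 1), among them 7 of the 8 fits that left out 1 culture, the exception being the fit without conditioned replicate 2. A fit with a replicate block gave an adjusted p of 0.0510. TSLP itself had 0 counts in all samples.

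Il2rg (ENSMUSG00000031304; chromosome X, 101264378 to 101268255), the common gamma chain, had 0 counts in all 8 samples. Its whole span lies inside Gm20489 (101261405 to 101269023), a gene model on the same strand that had 1 to 6 counts in a sample, and 30.5% of its exon bases overlap exons of that model. How reads in overlapping genes were assigned is not given in the sources used here, and the 0 is therefore not taken as a measure of Il2rg expression. The level of the gene that pairs with Il7r in the IL-7 receptor was thus not analysed here.

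Of the 2 kinases, Jak1 did not pass the test and Jak3 was lower in conditioned medium. Jak1 (ENSMUSG00000028530; chromosome 4, 101152367 to 101265282), bound to the Il7r chain and to many other cytokine receptors, had 404, 436, 412 and 405 normalised CPM in control and 427, 426, 423 and 409 in conditioned cultures. The conditioned values all lay within the control range. Its change was 1.64%, with an interval from -2.27 to 5.71% (edgeR adjusted p = 0.558). The log2 difference, 0.0234, was 0.0155 without control replicate 1, 0.0489 without control replicate 2, 0.0387 without conditioned replicate 4 and 0.00212 with scaling by total counts.

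Jak3 (ENSMUSG00000031805; chromosome 8, 71676296 to 71690575) is the kinase bound to the common gamma chain and is largely restricted to blood cells. Control cultures had 127, 120.4, 120.1 and 124 normalised CPM of Jak3, and conditioned cultures 108, 111, 120.5 and 116. Conditioned replicate 3 lay among the control cultures, and the other 3 lay below all of them. Jak3 was the only member that fell, by 0.11 on the log2 scale (-0.11, SE 0.03, edgeR adjusted p = 0.0174). The call was lost without control replicate 1 (adjusted p = 0.0838) or 4 (0.0544) and without conditioned replicate 1 (0.115) or 2 (0.0741). Insl3, which covers 7.55% of the exon bases of Jak3 on the same strand and lies inside it, was listed at 0 in every sample, and how reads from the shared bases were assigned is not given in the sources used here.

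As a share of the counts of Jak1 and Jak3 together, Jak3 took 22.9% ± 0.984 in control and 21.3% ± 0.973 in conditioned medium (SD, n = 4 each). The difference of -1.57 percentage points did not pass a two-sided exact permutation test (p = 0.114, and 0.114 after Benjamini-Hochberg adjustment over the 2 shares tested). Control replicate 2, at 21.7%, lay below conditioned replicates 3 and 4, both at 22.1 to 22.2%. The smallest p that 4 against 4 samples allow is 0.0286.

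Both STAT5 genes rose. They are close paralogs that sit next to each other on chromosome 11, 8627 bases apart and transcribed away from each other: Stat5b (ENSMUSG00000020919; 100780731 to 100850724, minus strand) and Stat5a (ENSMUSG00000004043; 100859351 to 100885169, plus strand). Their proteins bind the same DNA motif and partly stand in for each other. Stat5b had 141, 144, 142 and 137 normalised CPM in control cultures and 169, 164, 169 and 158 in conditioned cultures. The lowest conditioned culture, replicate 4, was above the highest control culture, replicate 2. Stat5b rose by 16.9%, or 0.23 on the log2 scale (SE 0.03, 95% interval 0.16 to 0.29, edgeR adjusted p = 1.04e-06).

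Stat5a had 94.2, 94.6, 87.1 and 89.9 normalised CPM in control cultures. In conditioned cultures it had 99.2, 97.4, 98.7 and 103, again above every control culture. Its rise was 8.65%, or 0.12 on the log2 scale (SE 0.03, 95% interval 0.05 to 0.19, edgeR adjusted p = 0.0083). The calls of Stat5a and Stat5b held in all 15 alternatives, with adjusted p up to 0.0314 for Stat5a and 3.31e-05 for Stat5b.

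Whether Stat5b rose by more than Stat5a was tested through the Stat5a share of the counts of the pair. It was 40.0, 39.7, 38.0 and 39.7% in control cultures and 37.0, 37.3, 36.9 and 39.4% in conditioned cultures. Control replicate 3 and conditioned replicate 4 each lay apart from the rest of their group, so the media overlapped. The mean share moved from 39.3% ± 0.902 to 37.7% ± 1.18 (SD, n = 4 each), a difference of -1.68 percentage points that did not pass the two-sided exact permutation test (p = 0.0571, adjusted over the 2 shares 0.114). Without conditioned replicate 4 it was -2.27 points (exact p = 0.0571, the smallest that 4 against 3 samples allow).

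**Figure D4:**
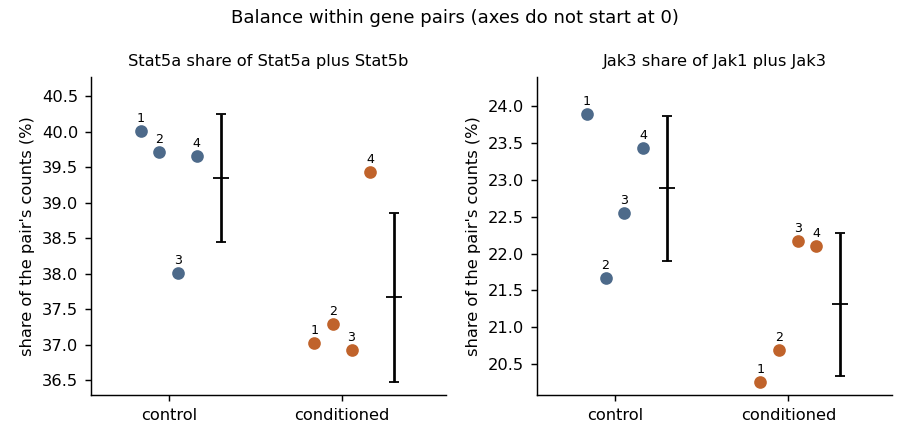
Share of the counts of a gene pair (vertical axes in percent, which do not start at 0) taken by Stat5a, of Stat5a plus Stat5b, and by Jak3, of Jak1 plus Jak3, in each culture, with replicate numbers and the mean ± SD of each medium. Conditioned replicate 4, at 39.4% Stat5a, lies among the control cultures.

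Part of the sequence of the paralogs is identical, and the start of the longest such stretch is shown because reads inside it cannot be assigned to 1 gene by sequence. In the transcripts with the longest coding sequence in GENCODE M21, the coding sequences were 90.9% identical over 2291 aligned bases, and 26.0% of the 50-base words of Stat5a coding sequence also occurred in Stat5b. The longest run without a mismatch was 324 bases, at coding bases 571 to 894 in each gene. The first 120 bases of it, coding bases 571 to 690, are given here, and how reads inside it were counted is not given in the sources used here.
Stat5a and Stat5b: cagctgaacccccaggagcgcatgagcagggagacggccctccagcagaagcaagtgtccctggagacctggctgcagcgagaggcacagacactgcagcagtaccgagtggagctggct

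The feedback genes were grouped as genes induced by STAT5. STAT5 activity itself was not measured. Cish (ENSMUSG00000032578; chromosome 9, 107296026 to 107302784) encodes a SOCS family protein that damps cytokine receptor signalling and is a classical STAT5 target. Cish had 39.0, 36.2, 36.0 and 41.1 normalised CPM in control cultures and 43.5, 39.9, 43.1 and 48.7 in conditioned cultures. Only conditioned replicate 2 and control replicate 4 crossed, and conditioned replicate 4 was the highest of the 8. The rise of Cish was 15.2%, or 0.20 on the log2 scale (SE 0.06, 95% interval 0.09 to 0.32, edgeR adjusted p = 0.00606), and was called in all 15 alternatives.

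STAT5 dimers bind the palindrome TTCNNNGAA, which reads the same on both strands. It was searched in RefSeq windows of 300 bases around gene starts (GRCm38.p6, 250 bases before to 50 after). Of the 10 genes 9 had a window, Socs2 being the one without, and 2 of the 9 held a match: Cish with 2 matches and Il7r with 1. By gene, 9.55% of all 27025 genes with a window had a match. By window, 2 of the members' 12 windows and 8.30% of all 32851 windows held at least 1 match, and 0.457% of all windows held 2 or more. Of the 7 without a match, Crlf2, Jak3, Pim1, Stat5a and Stat5b were called, Jak1 was not, and Il2rg was not tested. Any relation of the motif to the changes was not tested. The matches of Cish and Il7r are shown with their flanks, with the motif in capitals. The printed stretch of Cish is chr9:107296654-107296683 on the plus strand, with the matches at bases 251 to 270 of its window, in a non-coding exon part in GENCODE M21. The printed stretch of Il7r is chr15:9530000-9530028 on the minus strand, with the match at window bases 109 to 117. A match is a description of the letters and not a measured binding site.
Cish: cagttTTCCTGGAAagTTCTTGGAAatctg
Il7r: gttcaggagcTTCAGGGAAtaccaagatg

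Pim1 (ENSMUSG00000024014; chromosome 17, 29490753 to 29496112), a kinase that promotes survival and growth, had 338, 306, 312 and 319 normalised CPM in control cultures and 346, 325, 333 and 345 in conditioned cultures. Control replicate 1 lay above conditioned replicates 2 and 3. The rise of Pim1 was 5.88%, or 0.08 on the log2 scale (SE 0.03, edgeR adjusted p = 0.0372). The call was lost in 8 of 15 alternatives: scaling by total counts (adjusted p = 0.142), the DESeq2 test (0.0595), and 6 of the 8 fits that left out 1 culture (0.0612 to 0.133), the exceptions being those without control replicate 1 or conditioned replicate 2.

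Socs2 (ENSMUSG00000020027; chromosome 10, 95385362 to 95417180), another SOCS family gene induced through STAT5, had 293, 290.25, 269 and 293 normalised CPM in control cultures and 296, 288, 293 and 313 in conditioned cultures. Apart from control replicate 3 at the bottom and conditioned replicate 4 at the top, the cultures lay close together. The change was 3.71%, with an interval from -0.71 to 8.34% (edgeR adjusted p = 0.206). On the log2 scale this was 0.0526, against 0.0266 without control replicate 3, 0.0291 without conditioned replicate 4 and 0.0312 with scaling by total counts.

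Around these genes, 59 further genes of the pathway were counted in 6 lists grouped by role, and 54 could be tested. Of the 54, 21 passed the test (16 higher and 5 lower), or 38.9%, against 30.5% of all tested genes. Their median log2 fold change was 0.05. The list of STAT5-induced genes had 8 of 10 called and the PI3K list 6 of 8, while the negative regulators had 4 of 18. These lists were chosen with earlier results of these data known, so no conclusion is drawn from the shares called.

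**Figure D5:**
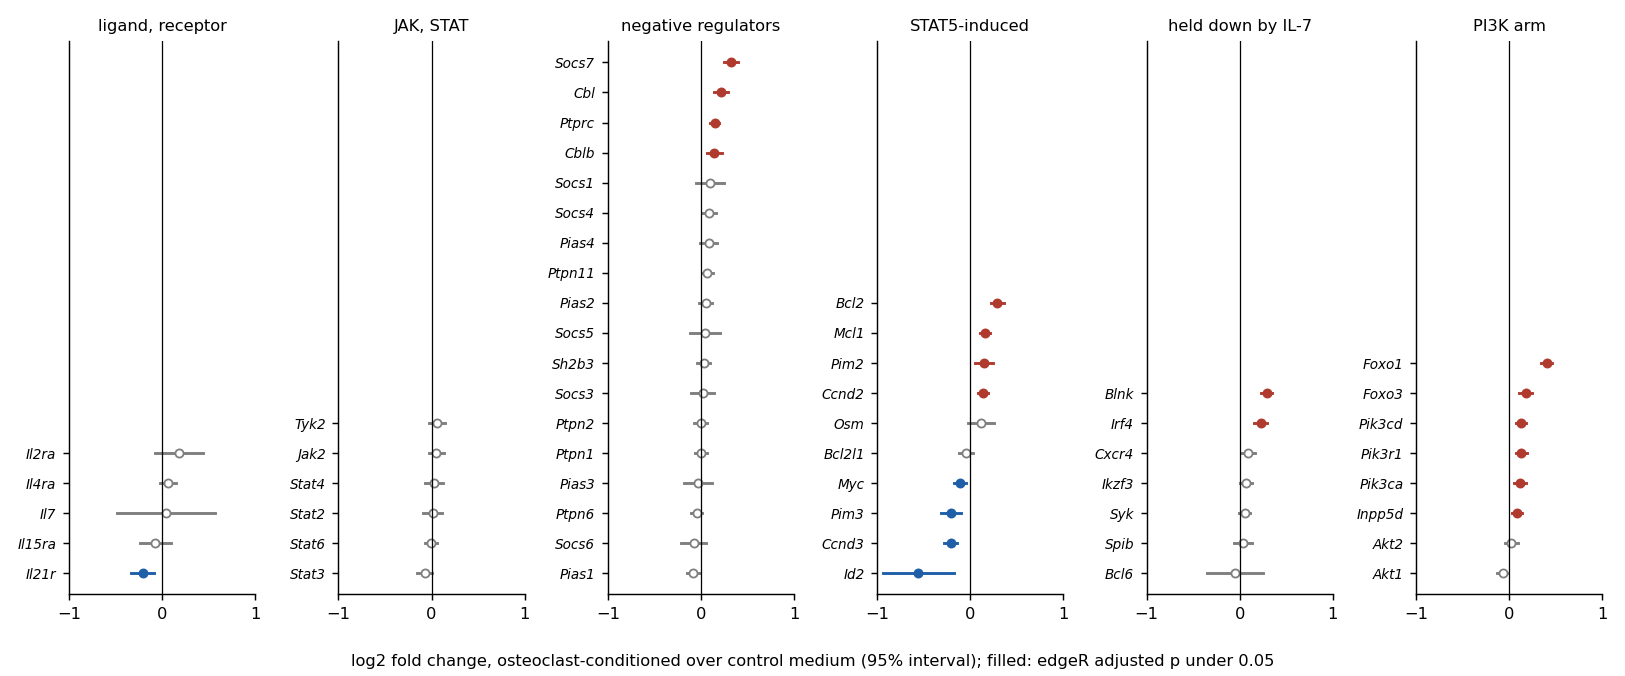
Log2 fold change in osteoclast-conditioned over control medium (horizontal axes) with 95% intervals for the 54 tested genes, in 1 panel per list, filled where the edgeR adjusted p is under 0.05. The list of STAT5-induced genes has called genes on both sides of 0, 4 higher and 4 lower, while the 6 called genes of the PI3K list are all higher.

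Of 8 ligands and other receptor chains, 5 were tested. Il21r, the IL-21 receptor chain that also pairs with the common gamma chain, was the only one called, falling from 22.3 ± 1.04 to 19.3 ± 1.12 normalised CPM (SD, n = 4 each; -0.21 on the log2 scale, SE 0.06, edgeR adjusted p = 0.00882) with no overlap between the media. Il4ra, the IL-4 receptor chain and the most abundant of the list per exon length, had 64.2 ± 3.55 against 67.2 ± 1.68 (edgeR adjusted p = 0.255). It passed without control replicate 2 (adjusted p = 0.0416). Il7, the ligand, had 130 counts over all samples (log2 fold change 0.04, edgeR adjusted p = 0.930).

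The other JAK and STAT genes counted were Jak2, Tyk2, Stat2, Stat3, Stat4 and Stat6, with a median log2 fold change of 0.02 and a range from -0.08 to 0.06. Their edgeR adjusted p lay between 0.134 and 0.971. Stat6, the IL-4 signal transducer, had 119.3 in both media (interval of the log2 fold change -0.07 to 0.06, edgeR adjusted p = 0.971). Stat3, whose 3' end overlaps that of Stat5a by 1.01% of the exon bases of Stat5a, had a log2 fold change of -0.08 (edgeR adjusted p = 0.134).

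The negative regulators held 18 tested genes, of which 4 rose and 0 fell (median log2 fold change 0.05). That is 22.2% called, against 30.5% of all tested genes. Socs7, a SOCS family adaptor, changed most, with control cultures at 53.6 to 55.4 and conditioned cultures at 65.8 to 70.3 normalised CPM (0.33 on the log2 scale, SE 0.04, edgeR adjusted p = 7.50e-08). The ubiquitin ligase Cbl followed at 0.21 (SE 0.04, adjusted p = 7.83e-05) and the phosphatase Ptprc, also known as CD45, at 0.15 (SE 0.03, adjusted p = 3.22e-05). Socs1 and Socs3, the feedback inhibitors that block JAK kinases directly, had log2 fold changes of 0.10 and 0.02 (edgeR adjusted p = 0.353 and 0.837). Ptpn6, the phosphatase SHP-1 and the most abundant of the uncalled genes per exon length, had 233 ± 8.01 against 226 ± 5.24 normalised CPM (edgeR adjusted p = 0.278). Its log2 difference of -0.0435 was -0.0206 without control replicate 3, -0.0276 without conditioned replicate 3 and -0.0647 with scaling by total counts.

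Genes known to be induced by STAT5 moved in both directions: of 10 tested, 4 rose, 4 fell and 2 did not pass (median 0.03). Bcl2, the anti-apoptotic gene, rose from 86.4 ± 2.82 to 105.8 ± 3.90 normalised CPM, with no overlap between the media (0.29 on the log2 scale, SE 0.04, edgeR adjusted p = 1.52e-07). Its relative Mcl1 and the cyclin Ccnd2 also rose, by 0.16 and 0.13 on the log2 scale, as did the kinase Pim2 by 0.14. The cyclin Ccnd3 fell from 1652 ± 96.3 to 1427 ± 45.6 normalised CPM (-0.21 on the log2 scale, SE 0.03, edgeR adjusted p = 7.88e-05), and 4.11% of its exon bases overlap another annotated gene. Pim3 and Myc had log2 fold changes of -0.21 and -0.11 (edgeR adjusted p = 0.00317 and 0.00996). Within the Pim kinases, Pim1 and Pim2 were thus called higher and Pim3 lower.

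Id2, an inhibitor of basic helix-loop-helix factors, showed the largest fold change of the list, falling by 0.56 on the log2 scale (SE 0.19, edgeR adjusted p = 0.0223), but it rested on 360 counts in all. Its call was lost with DESeq2 (adjusted p = 0.0502) and without control replicate 1 (0.0514) or 3 (0.0972) or conditioned replicate 2 (0.0778) or 3 (0.0822). Bcl2l1, which encodes BCL-XL, had 79.2 ± 2.74 against 76.5 ± 2.08 normalised CPM (edgeR adjusted p = 0.312). Its log2 difference of -0.0503 was -0.0298 without conditioned replicate 1, -0.0320 without control replicate 3 and -0.0715 with scaling by total counts.

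In pre-B cells, IL-7 signalling is known to hold down genes of the next stage of differentiation. Of 9 such genes 7 could be tested, because Rag1 and Rag2 had 0 counts in all samples. Both lie wholly inside the gene model B230118H07Rik, with 1.21% and 6.07% of their exon bases in its exons, so the same limit holds for both. Blnk, the adaptor of the pre-B cell receptor, rose from 144 ± 3.47 to 176 ± 4.41 normalised CPM (0.29 on the log2 scale, SE 0.03, edgeR adjusted p = 8.85e-09). Irf4, a transcription factor of light-chain rearrangement, rose from 102 ± 1.97 to 119 ± 4.16 (0.22 on the log2 scale, SE 0.03, edgeR adjusted p = 3.71e-06). Neither gene overlapped between the media, and these 2 called of 7 tested were 28.6%, against 30.5% of all tested genes. The part of IL-7 signalling in these rises was not tested. The other 5 did not pass the test, among them the repressor Bcl6 (491 counts in all, log2 fold change -0.05, edgeR adjusted p = 0.828) and the chemokine receptor Cxcr4 (78.0 ± 3.78 against 83.2 ± 2.81, edgeR adjusted p = 0.0709). Cxcr4 passed with the replicate number as a block (adjusted p = 0.0445) and without control replicate 2 (0.0115).

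The PI3K arm, which IL-7 also engages, had 6 of 8 genes called, all higher (median log2 fold change 0.12). Foxo1, a transcription factor that PI3K signalling keeps out of the nucleus, had the largest rise of the 54: control cultures had 148 to 152 normalised CPM and conditioned cultures 194 to 204, a rise of 32.2% (0.40 on the log2 scale, SE 0.03, edgeR adjusted p = 3.26e-12). Foxo3, its relative, rose by 13.1% (edgeR adjusted p = 0.000196). Pik3cd, the catalytic subunit of blood cells, had 999 to 1070 normalised CPM in control and 1102 to 1162 in conditioned cultures (0.13 on the log2 scale, SE 0.03, edgeR adjusted p = 0.000411). The catalytic subunit Pik3ca and the regulatory subunit Pik3r1 had log2 fold changes of 0.12 and 0.13, and Inpp5d, a phosphatase that opposes PI3K, of 0.08, so genes that promote and genes that oppose the pathway were both among the called. Akt1, the central kinase, had 372 ± 12.4 against 355 ± 11.1 normalised CPM (log2 fold change -0.07, edgeR adjusted p = 0.0580). Akt1 passed as lower with scaling by total counts (adjusted p = 0.0110) and without control replicate 2 (0.0445) or 3 (0.0357) or conditioned replicate 2 (0.0324). Over all 15 alternatives its log2 fold change lay between -0.0929 and -0.0451, with adjusted p up to 0.293.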

How the data were processed

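The deposited values are whole-number counts per Ensembl gene ID, raw and not normalised by the authors. Per the submitters' processing notes, STAR 2.7.5a and featureCounts 2.0.1 were used with mm10. The annotation, strand setting and treatment of reads that match several genes are not given in the sources used here. Symbols, spans and exon lengths came from GENCODE M21 (21817 of 21859 IDs matched), and gene start windows from RefSeq. Genes passing filterByExpr (10729) were scaled by TMM and tested with edgeR 4.0.16 (glmQLFit, robust; glmQLFTest; medium as the only term) in R 4.3.3, tested on simulated data. Standard errors are the absolute log2 change over the square root of F. Shares were compared by exact permutation (scipy 1.17.1). Alternatives were DESeq2 1.42.0, limma-voom (limma 3.58.1), other scalings and filters, a replicate block and leaving out each sample. The genes and lists were chosen with earlier results of these data known. All 10 members were named, with up to 3 called genes of largest change per list and its most abundant uncalled gene per exon length; Il7, Tslp, Stat3, Socs1, Socs3, Bcl6, Mcl1, Ccnd2, Pim2, Pim3, Myc, the other PI3K genes, the markers named and the overlapping neighbours were added after their values were seen. Some genes of the fixed lists are not reported here and were left out of the lists' counts, medians and sums.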

Additional observations from a re-analysis of the deposited data

Results flagged for a closer look

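In 58 groups of 4 cultures (9 members, 18 named pathway genes and 2 shares, in each medium), 2 held a culture whose gap to its nearest neighbour, as a part of the group's range, exceeded Dixon's critical value for 4 samples at the 95% level. Chance gives about 1 such group in 20, or 2.9 of 58. Socs2 in control replicate 3 was 269 normalised CPM, against 290.25 to 293 in the other control cultures. The Stat5a share in conditioned replicate 4 was 39.4%, against 36.9 to 37.3% in the other conditioned cultures.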

How the results depend on the processing

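No member changed sign in any of the 15 alternatives. The count of members called higher moved from 5 to 3 with total counts only and to 3 with DESeq2. Leaving out 1 culture gave from 3 to 5 members called, from 3 to 5 higher and from 0 to 1 lower, from 17 to 26 genes of the wider lists called (3 to 6 lower), and from 2635 to 3578 of all genes. The Stat5a share difference ranged from -2.27 to -1.43 points and the Jak3 share difference from -1.98 to -1.23. The log2 difference of Stat6, near 0, changed sign without control replicate 2 (0.0115) or 4 (0.0131) or conditioned replicate 1 (0.00461) or 3 (0.0108), the range on leaving out 1 culture being -0.0151 to 0.0131. Same-numbered cultures had deviations correlating at 0.037 on average (-0.051 to 0.143), and 3 of 8 correlated best with their own number, so the numbers were not taken as pairs. With the replicate block 5 members, 23 wider genes and 3446 of all genes were called, and the sign-flip p of each share was 0.125, the smallest possible. The cause of these shifts was not tested. A floor of 3 counts corresponds to 0.139 to 0.195 CPM, for counting error only.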
